A study of Mus musculus with 6 samples.

Results

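Hepcidin and the genes that move and store iron were followed in the livers of male mice fed a high-fat diet (HFD). The set was defined by gene symbol, with no use of measured values: hepcidin and its paralog (Hamp, Hamp2), the transferrin receptors (Tfrc, Tfr2), the iron exporter ferroportin (Slc40a1), the ferritin subunits (Fth1, Ftl1), transferrin (Trf) and the BMP-response genes Id1 and Smad7. All 10 symbols matched exactly 1 row each among the 55487 genes of the deposited tables, and all 10 passed the filter on low counts. The 3 mutant libraries carry the genotype label RXRa f/f Alb cre+/-, and the 3 control libraries the label Alb cre +/-. Both groups are of strain C57/Bl6J and have the albumin-promoter Cre transgene, which is active in hepatocytes. The titles call the mutants Cre and the controls WT, and the design text names the mutation as S65A of Rxra, the gene of the nuclear receptor RXRα. Ages, the length of the diet and pooling of animals are not stated in the labels, and they do not state that the libraries come from different animals. The p-values therefore reflect variation among these libraries, which may be technical.

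The liver sets the body's iron level through hepcidin, a peptide hormone that hepatocytes secrete and that binds ferroportin on gut cells, macrophages and hepatocytes, so that the exporter is degraded and iron stays inside the cell. Hepcidin transcription is driven by BMP ligands from sinusoidal endothelial cells, acting through BMP receptors with the co-receptor hemojuvelin (Hjv) and SMAD proteins, and, in inflammation, by IL-6 acting through STAT3. Iron itself acts on several of the other transcripts after transcription, through iron regulatory proteins that bind a hairpin called the iron-responsive element: binding blocks translation of ferritin and ferroportin and protects the transferrin receptor 1 transcript from decay.

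The regulatory sequences below are shown because Hamp had the largest fold change of the 10 genes, while its near copy Hamp2 did not pass the test. The genes lie on the minus strand of mouse chromosome 7, Hamp (ENSMUSG00000050440.8) at bases 30942368 to 30944032 and Hamp2 (ENSMUSG00000056978.8) at bases 30922372 to 30924681 of GRCm38 (mm10), with 17686 bases between them. The 250 bases before each start site are given from RefSeq (GRCm38.p6), with capitals for GGCGCC, the core of the known BMP-responsive element of the hepcidin promoter, for TTCNNNGAA, the form of a STAT element, and for TGAGTCA, the form of an AP-1 element. The motifs were searched on both strands and none overlaps another. RefSeq sets the start site of Hamp2 inside the GENCODE gene given above, so the whole Hamp2 window lies within that gene.
Hamp promoter, chr7:30944030-30944279, minus strand: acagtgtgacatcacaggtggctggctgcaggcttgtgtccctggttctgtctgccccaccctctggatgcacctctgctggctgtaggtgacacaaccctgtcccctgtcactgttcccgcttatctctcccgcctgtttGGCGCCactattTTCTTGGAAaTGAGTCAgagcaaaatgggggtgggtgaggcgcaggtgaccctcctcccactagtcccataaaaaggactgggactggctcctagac
Hamp2 promoter, chr7:30924182-30924431, minus strand: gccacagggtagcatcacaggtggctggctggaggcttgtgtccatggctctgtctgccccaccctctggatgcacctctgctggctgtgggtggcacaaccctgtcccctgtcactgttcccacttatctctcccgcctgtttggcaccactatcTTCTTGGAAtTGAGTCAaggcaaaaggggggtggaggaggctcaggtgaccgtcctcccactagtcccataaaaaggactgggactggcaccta

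The windows were identical at 227 of 247 aligned positions (91.9%), with 20 substitutions and no gap. GGCGCC was present in the Hamp window, starting 109 bases before the start site, and absent from the Hamp2 window, where the substitution G145A falls within it (Hamp base first, position counted from 1 at the 5′ end of the Hamp window, Hamp2 base last). TTCTTGGAA and TGAGTCA were present in both windows. Of 32851 RefSeq promoter windows of this length, 9.59% held GGCGCC, 7.02% held TTCNNNGAA and 4.46% held TGAGTCA. The hexamer AGGTCA, bound by RXR and its partner receptors, was in neither hepcidin window and in 14% of all windows. These matches describe the letters only. The transcripts of the pair are also alike, with 93% of 417 aligned positions identical, so that the authors' read assignment could mix the pair to an unknown extent.

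Of the other genes, 4 carry an iron-responsive element, which a search for a bulged C, 5 paired bases, a CAGTGN loop and 5 paired bases located in the untranslated regions of their GENCODE transcripts. The elements are given as DNA of the sense strand on GRCm38, with the bulged C and the CAGTG of the loop in capitals.
Fth1, 5′ UTR, chr19:9982731-9982760, plus strand: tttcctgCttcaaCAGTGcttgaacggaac
Ftl1, 5′ UTR, chr7:45459779-45459808, minus strand: tgtcttgCttcaaCAGTGtttgaacggaac
Slc40a1, 5′ UTR, chr1:45925465-45925494, minus strand: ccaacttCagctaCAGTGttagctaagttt
Tfrc, first of 4 found in the 3′ UTR, chr16:32631218-32631247, plus strand: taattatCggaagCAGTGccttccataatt

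The pattern was found in a UTR of 160 of 21901 protein-coding genes (0.731%). The search was strict, so elements that depart from this pattern were missed, and a gene without a match may still carry one. RNA abundance does not show binding at these sites: the ferritin and ferroportin elements act on translation, which was not measured, whereas the Tfrc elements act on the level of the transcript.

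In the libraries as a whole, 35847386 to 43162557 estimated counts were obtained in mutants and 38766643 to 40155170 in controls. Rxra itself, the targeted gene, had 700, 522 and 609 CPM in mutant replicates 1 to 3 and 501, 471 and 414 CPM in control replicates 1 to 3. The difference did not pass (log2 fold change 0.40 ± 0.13, adjusted p = 0.0724). In TPM the groups of Rxra overlapped, with 174, 119 and 148 TPM in mutants and 181, 170 and 152 TPM in controls. The mean was then lower in mutants (147 ± 27.5 TPM, against 168 ± 14.6 TPM). Gene-level values cannot show the altered allele. CPM is each gene's estimated count scaled to a fixed library size, after TMM scaling, which sets the typical gene equal between groups; at library totals the median log2 fold change of all tested genes was -0.40, and with limma on log2(TPM + 1) it was -0.48. Adjusted p-values are from edgeR's quasi-likelihood test with Benjamini-Hochberg adjustment over 14286 genes unless another test is named, a gene is said to have risen or fallen where that value was under 0.05, log2 fold changes are mutant over control with their standard error, and ± after a CPM or TPM value is the SD of n = 3 libraries. Hepatocyte markers were abundant in all libraries, and after TMM scaling 1 of 7 was called (Apoa1, higher). In TPM their sum was lower in mutants without overlap (47975 to 56104, against 68038 to 79008 in controls), and Apoa1 overlapped between groups. Several markers of other liver cell types fell in mutants: 7 of 8 stellate cell, 6 of 8 monocyte-derived macrophage, 3 of 9 sinusoidal endothelial and 2 of 9 Kupffer cell markers fell and none of these lists held a marker that rose, while 1 of 4 cholangiocyte markers rose and 0 of 7 lymphocyte markers passed with edgeR, 0 of them having an unadjusted p under 0.05. In bulk tissue, fewer cells of a type and less RNA per cell cannot be told apart.

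Of the 10 genes, 2 rose (Hamp and Tfr2), 1 fell (Fth1) and 7 did not pass. Over all tested genes, 13.5% were called, 6.64% as higher and 6.82% as lower. The split depends on the scaling: library totals gave 293 higher and 4508 lower genes in all, with 1 higher and 4 lower of the 10, and limma on log2(TPM + 1) gave 217 higher and 7362 lower, with 1 higher and 5 lower of the 10. The total of 1923 called genes became 882 on leaving out mutant replicate 1. Leaving out control replicate 1, 2 or 3 gave 886, 956 or 1018. In CPM after TMM scaling the groups did not overlap for 4 of the 10 genes (Hamp, Tfr2, Fth1 and Id1), against 34.9% of all tested genes.

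**Figure D1:**
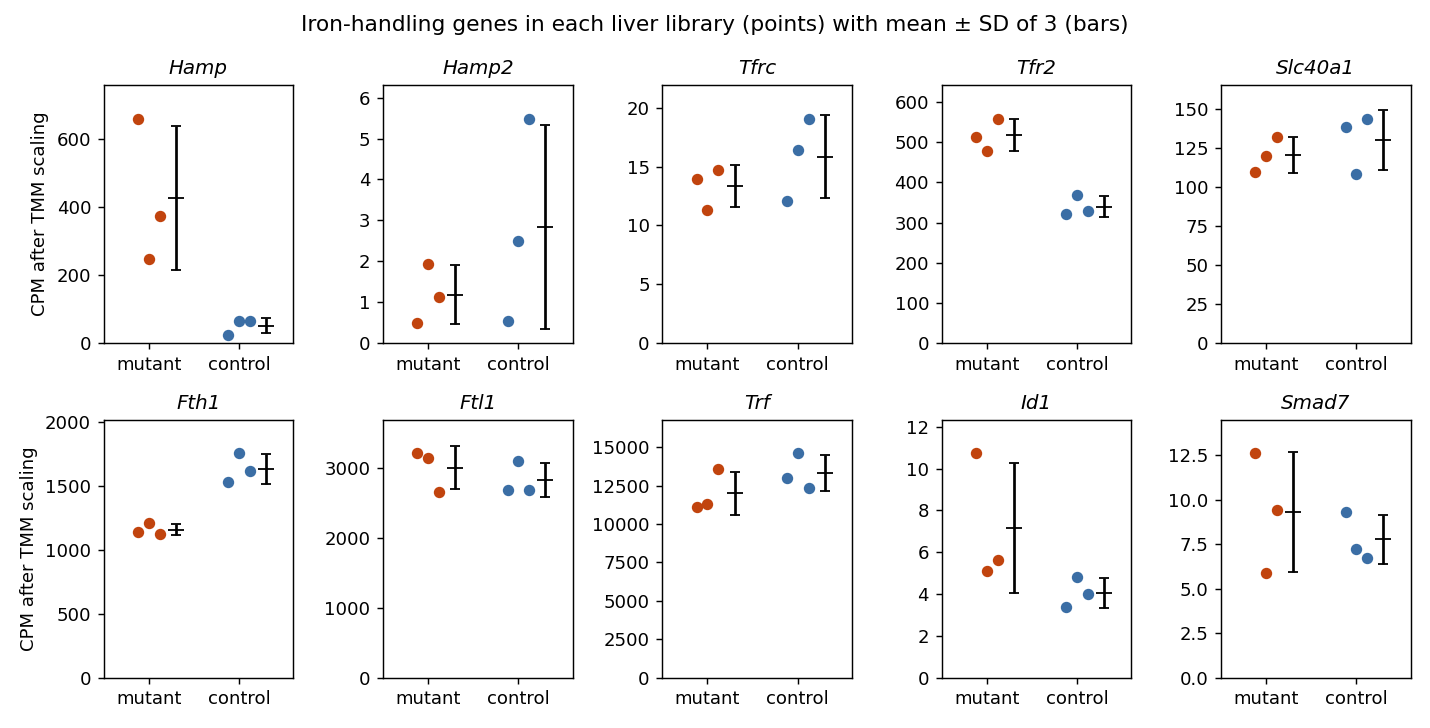
CPM after TMM scaling (y axes, linear from 0) of each of the 10 genes in the 3 mutant and 3 control libraries; points are libraries in replicate order and bars are mean ± SD. Hamp is at 248 to 660 CPM in mutants and 24.1 to 65.9 CPM in controls, Tfr2 is higher and Fth1 lower in every mutant library, and the remaining genes other than Id1 overlap.

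Hamp, which encodes hepcidin, was 8.34-fold higher in mutant livers. It had 660, 248 and 373 CPM in mutant replicates 1 to 3 and 24.1, 65.9 and 63.6 CPM in control replicates 1 to 3. The lowest mutant library was thus above the highest control library, while the mutants differed among themselves more widely in CPM, with replicate 1 on top, and control replicate 1 was the lowest of all. The log2 fold change was 3.06 ± 0.46 (95% interval 2.02 to 4.10, adjusted p = 0.00493), on means of 427 ± 211 CPM in mutants and 51.2 ± 23.5 CPM in controls. The rise was called whichever library was left out, with log2 fold changes of 2.59 to 3.33 and a highest adjusted p of 0.0196. It was also called under every scaling, the smallest value being 2.48 with limma on log2(TPM + 1) (limma adjusted p = 0.00425).

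Hamp2 encodes hepcidin-2, a peptide that, unlike hepcidin-1, was without effect on iron when overproduced in mice. Its estimated counts were 19.5, 61.7 and 35.3 in mutant replicates 1 to 3 and 24.7, 111 and 244 in control replicates 1 to 3, which is 0.497, 1.92 and 1.13 CPM in mutants and 0.544, 2.49 and 5.49 CPM in controls. The groups overlapped, and control replicate 1, the control library lowest in Hamp, was also the control lowest in Hamp2. The mutants ran in the reverse order: replicate 1 was highest in Hamp and lowest in Hamp2, and replicate 2 lowest in Hamp and highest in Hamp2. The difference did not pass (log2 fold change -1.27 ± 0.77, 95% interval -3.03 to 0.50, adjusted p = 0.320). It ranged from -1.83 to -0.36 with a library left out, the value nearest 0 being that without control replicate 3. As a share of the summed TPM (length-scaled abundance) of the pair, Hamp2 made up 0.0712%, 0.707% and 0.281% in mutant replicates 1 to 3 and 2.02%, 3.36% and 7.40% in control replicates 1 to 3. The share was lower in all 3 mutants than in any control (0.353 ± 0.324% in mutants, 4.26 ± 2.80% in controls), with a two-sided exact permutation p of 0.1, the smallest that 3 against 3 libraries allow, and 0.14 after adjustment over 7 ratios. Hamp made up most of the sum in every library, so its rise lowers the share by itself. With the counts of the pair summed, a choice made after seeing the data, the log2 fold change was 2.99 ± 0.46 (adjusted p = 0.00581).

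Genes with a mean of at least 10 CPM were searched for likeness to Hamp, leaving out predicted genes (symbols of the Gm or Rik kind). Those most like Hamp in pattern were found by the root mean square distance between mean-centred log2 CPM over the 6 libraries. They were Zbtb16, which encodes the transcription factor PLZF (distance 0.47), the nicotinamide methyltransferase Nnmt (0.51), the serine dehydratase Sds (0.52), the adropin gene Enho (0.60) and the oxysterol hydroxylase Cyp7b1 (0.62). Zbtb16 had 39.8, 12.95 and 37.4 CPM in mutant replicates 1 to 3 and 1.98, 3.10 and 2.41 CPM in control replicates 1 to 3, so that mutant replicate 2 was the lowest mutant for it as for Hamp. These genes were picked by likeness over the same libraries, so a shared order of the mutants comes with the choice. The measure is a description of these libraries and was not tested.

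Tfr2 (chromosome 5, bases 137569840 to 137587481, plus strand), the hepatocyte sensor of iron-loaded transferrin that takes part in hepcidin signalling, also rose. It had 513, 479 and 559 CPM in mutant replicates 1 to 3 and 320, 369 and 329 CPM in control replicates 1 to 3. All 3 mutants were above all 3 controls. The log2 fold change was 0.61 ± 0.10 (95% interval 0.38 to 0.84, adjusted p = 0.00726), and the call held with any library left out. It depended on the scaling: the log2 fold change was 0.21 at library totals (adjusted p = 0.132) and 0.01 with limma on log2(TPM + 1) (limma adjusted p = 0.927), where Tfr2 had 206, 176 and 220 TPM in mutants and 186, 215 and 195 TPM in controls.

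Tfrc encodes transferrin receptor 1, the uptake receptor that carries the 3′ UTR elements. Its values were 13.9, 11.3 and 14.7 CPM in mutant replicates 1 to 3 and 12.03, 16.4 and 19.1 CPM in control replicates 1 to 3, which overlap. The log2 fold change of -0.25 ± 0.19 did not pass (95% interval -0.68 to 0.18, adjusted p = 0.429). At library totals it was -0.65 and called (adjusted p = 0.0332), and in TPM the groups were apart, with 3.33, 2.48 and 3.45 TPM in mutants and 4.18, 5.70 and 6.73 TPM in controls. Red cell precursors are rich in this receptor. The globin genes Hba-a1, Hba-a2, Hbb-bs and Hbb-bt had overlapping groups in CPM. Summed erythroid markers had 365 to 641 CPM in mutants and 394 to 603 CPM in controls, while Epb42 and Rhag were at or near 0. In TPM the sum was 858 to 1502 in mutants and 1494 to 2361 in controls. Hba-a2 was then apart, with 322, 573 and 545 TPM in mutants and 862, 602 and 939 TPM in controls. The other globin genes still overlapped in TPM, and the part of red cell precursors in the values of Tfrc was not tested. Of the 6 erythroid markers tested 1 rose, Alas2, described with the heme genes. The 5 genes most like Tfrc in pattern, at distances of 0.068 to 0.10, were Nktr, Irgq, Nufip2, Polr2a and Tab2.

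Within each library the ratio of Tfrc to Tfr2 TPM does not depend on the scaling between libraries. Its log2 value was -5.95, -6.15 and -5.99 in mutant replicates 1 to 3 and -5.48, -5.23 and -4.85 in control replicates 1 to 3. Mutants lay below controls without overlap, by -0.84 on the log2 scale (exact permutation p = 0.1, the smallest possible, adjusted 0.14).

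Fth1 (chromosome 19, bases 9980598 to 9985098, plus strand), the ferritin heavy chain that oxidises iron for storage, fell. It had 1142, 1207 and 1121 CPM in mutant replicates 1 to 3 and 1527, 1753 and 1612 CPM in control replicates 1 to 3. The groups were well apart and the mutants close together. The log2 fold change was -0.50 ± 0.09 (95% interval -0.71 to -0.28, adjusted p = 0.0126). The call was lost by a small margin without mutant replicate 1 (adjusted p = 0.0552) and without control replicate 2 (adjusted p = 0.0506), and the decrease was larger at library totals (-0.89) and in TPM (-1.09 with limma on log2(TPM + 1)), where it was called.

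Ftl1, the ferritin light chain that helps form the iron core, did not pass. It had 3203, 3142 and 2649 CPM in mutant replicates 1 to 3 and 2678, 3098 and 2677 CPM in control replicates 1 to 3. The groups overlapped in CPM, but not in TPM, with 4597, 4134 and 3721 TPM in mutants and 5573, 6449 and 5669 TPM in controls. The log2 fold change was 0.09 ± 0.11 (95% interval -0.17 to 0.35, adjusted p = 0.657), but its sign depends on the scaling, being -0.31 at library totals and -0.51 in TPM, where limma called it (limma adjusted p = 0.00792). The processed copy Ftl1-ps1 had 8.51 to 15.8 CPM in mutants and 10.6 to 14.3 CPM in controls, and could share reads with Ftl1.

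The ratio of heavy to light ferritin chain does not depend on the scaling between libraries either. The log2 ratio of Fth1 to Ftl1 TPM was -1.40, -1.29 and -1.15 in mutant replicates 1 to 3 and -0.72, -0.73 and -0.64 in control replicates 1 to 3. Every mutant was lower than every control, and the difference of -0.58 was several times the SD within mutants (0.12) and controls (0.049), with an exact permutation p of 0.1, the smallest possible (adjusted 0.14). Leaving out any library kept it between -0.65 and -0.52.

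**Figure D2:**
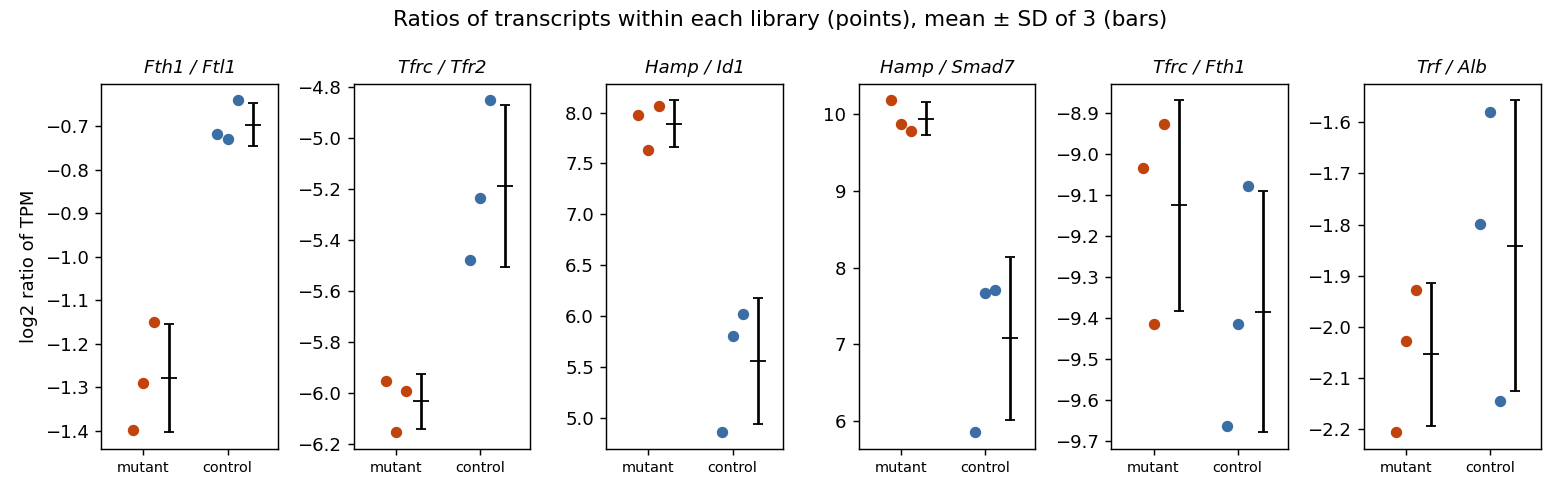
Log2 ratios of TPM (y axes, one scale per panel, not starting at 0) for 6 gene pairs within each mutant and control library; points are libraries and bars mean ± SD. Fth1 / Ftl1 and Tfrc / Tfr2 are lower, and Hamp / Id1 and Hamp / Smad7 higher, in all mutants than in any control, whereas Tfrc / Fth1 and Trf / Alb overlap.

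Slc40a1, the only known cellular iron exporter of mammals and the target of hepcidin, had 109, 120 and 132 CPM in mutant replicates 1 to 3 and 138, 108 and 144 CPM in control replicates 1 to 3. The groups overlapped and the log2 fold change of -0.11 ± 0.13 did not pass (95% interval -0.41 to 0.19, adjusted p = 0.634). In TPM it had 36.7, 36.8 and 43.4 in mutants and 67.2, 52.5 and 71.1 in controls, without overlap, and the call was then lower (limma log2 fold change -0.69, limma adjusted p = 0.00426), as at library totals (-0.51, adjusted p = 0.0183). Kupffer cells also express the exporter, and the summed Kupffer cell markers had 120 to 225 CPM in mutants and 250 to 357 CPM in controls, with Clec4f at 28.7 to 57.7 CPM in mutants and 56.8 to 77.8 CPM in controls. The part of these cells in the values of Slc40a1 was not tested.

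Trf, which encodes transferrin, the plasma iron carrier made by hepatocytes, was the most abundant of the 10. Its values were 11081, 11305 and 13600 CPM in mutant replicates 1 to 3 and 13022, 14596 and 12308 CPM in control replicates 1 to 3. The groups overlapped and the log2 fold change of -0.15 ± 0.12 did not pass (95% interval -0.42 to 0.12, adjusted p = 0.456), whereas it was -0.55 at library totals (adjusted p = 0.0103) and -0.75 in TPM (limma adjusted p = 0.00312). Set against albumin, another secreted hepatocyte protein, the log2 ratio was -2.21, -2.03 and -1.93 in mutant replicates 1 to 3 and -1.80, -1.58 and -2.14 in control replicates 1 to 3, which overlap (exact permutation p = 0.3).

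Id1, an inhibitor of helix-loop-helix factors, and Smad7, an inhibitor of SMAD signalling, are targets of the same BMP and SMAD signal that drives hepcidin. Id1 had 10.7, 5.11 and 5.64 CPM in mutant replicates 1 to 3 and 3.37, 4.80 and 3.98 CPM in control replicates 1 to 3. Mutant replicate 1, the library highest in Hamp, stood far above the others, and the remaining mutants were only just above the highest control. The log2 fold change of Id1, 0.82 ± 0.31, did not pass after adjustment (95% interval 0.12 to 1.53, adjusted p = 0.119). It was 0.41 without mutant replicate 1, 0.43 at library totals (adjusted p = 0.312) and 0.15 with limma on log2(TPM + 1) (limma adjusted p = 0.643). In TPM the groups overlapped, with 17.1, 7.49 and 8.85 TPM in mutants and 7.83, 11.1 and 9.39 TPM in controls. Smad7 had 12.6, 5.89 and 9.41 CPM in mutant replicates 1 to 3 and 9.31, 7.24 and 6.75 CPM in control replicates 1 to 3, again with mutant replicate 1 highest and with overlap between groups. It did not pass (log2 fold change 0.26 ± 0.27, 95% interval -0.36 to 0.89, adjusted p = 0.581), and the sign turned to -0.13 at library totals, -0.27 in TPM and -0.03 without mutant replicate 1.

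The level of Hamp relative to these targets was compared within each library. The log2 ratio of Hamp to Id1 TPM was 7.97, 7.63 and 8.07 in mutant replicates 1 to 3 and 4.86, 5.81 and 6.02 in control replicates 1 to 3, a difference of 2.32. For Hamp to Smad7 it was 10.2, 9.87 and 9.78 in mutants and 5.85, 7.66 and 7.71 in controls, a difference of 2.87. Neither pair of groups overlapped, control replicate 1 was lowest in both ratios, and each exact permutation p was 0.1, the smallest possible (adjusted 0.14). Both ratios contain Hamp, so its rise enters each of them. The log2 ratio of Tfrc to Fth1, transcripts on which iron regulatory proteins act in opposite ways, overlapped between groups (-9.12 ± 0.257 in mutants, -9.38 ± 0.294 in controls, exact permutation p = 0.3).

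The values can also be set against the median of all tested genes under the same scaling. At library totals this nearly returns the TMM values, by construction, with 3.07 for Hamp, 0.61 for Tfr2 and -0.50 for Fth1 on the log2 scale. With limma on log2(TPM + 1) the distances from the median were 2.96 for Hamp, 0.50 for Tfr2 and -0.61 for Fth1, and -0.26 for Trf, -0.20 for Slc40a1, -0.18 for Tfrc and -0.02 for Ftl1, the last 4 of which limma called lower. They depend on which genes enter the median: with no filter on TPM they were 2.72 for Hamp, 0.25 for Tfr2, -0.85 for Fth1, -0.51 for Trf, -0.45 for Slc40a1, -0.43 for Tfrc and -0.27 for Ftl1.

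**Figure D3:**
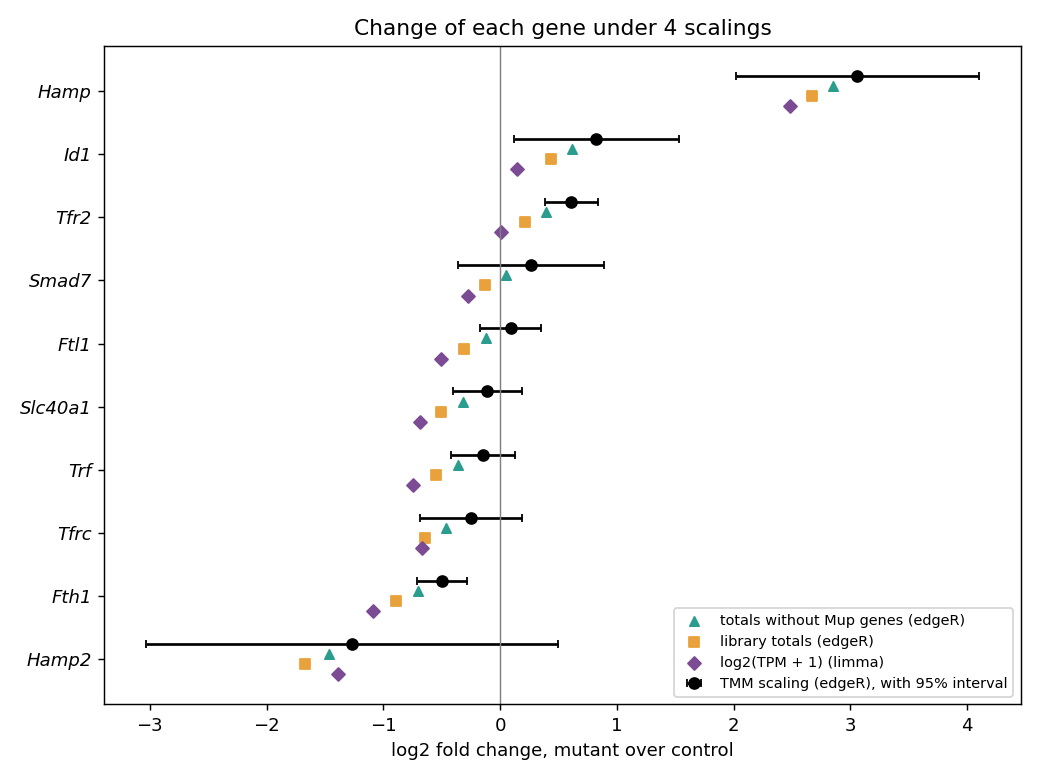
Log2 fold change, mutant over control, of the 10 genes under 4 scalings; black points carry the 95% interval of the TMM fit. Hamp lies between 2.48 and 3.06 under these 4, Fth1 is below 0 under all 4, Tfr2 lies between 0.01 and 0.61, and Ftl1 and Smad7 change sign.

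Level comparisons between genes use TPM. In mutant livers the order was Trf (7514 ± 996 TPM), Ftl1 (4151 ± 438), Hamp (2718 ± 1439.9), Fth1 (1704 ± 36.0), Tfr2 (200.6 ± 22.1) and Slc40a1 (39.0 ± 3.82), followed by Id1, Hamp2, Tfrc and Smad7 between 2.66 and 11.2 TPM. In control livers it was Trf (12587 ± 1019 TPM), Ftl1 (5897 ± 481), Fth1 (3635 ± 251), Hamp (487 ± 225), Tfr2 (199 ± 14.5) and Slc40a1 (63.6 ± 9.80), followed by Hamp2, Id1, Tfrc and Smad7 between 3.31 and 25.1 TPM. Hamp and Fth1 overlapped in mutants (1481 to 4299 and 1676 to 1745 TPM) and were apart in controls, where Fth1 was higher. Hamp also overlapped with Ftl1 in mutants. Hamp2 overlapped with both Id1 and Tfrc in both groups, and in mutants Smad7 overlapped with both Tfrc and Hamp2.

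Genes around the pathway were taken from 9 lists of 130 genes found in the tables, of which 121 were tested. In these, 9 rose, 9 fell and 103 did not pass, so that 14.9% were called, against 13.5% of all tested genes, with a median log2 fold change of 0.05 against 0.00. At library totals 4 rose and 43 fell, and with limma on log2(TPM + 1) 2 rose and 86 fell. Without mutant replicate 1 or control replicate 1 the 18 calls became 7, and without control replicate 2 or 3 they became 10. Of the 17 called genes picked by the rule for naming, which leaves out the called gene Bmpr1a, 5 (Dusp6, Il1b, Lifr, Hmox1 and Alas2) were called with any library left out. At library totals 12 of the 17 were called in the same direction, and with limma on log2(TPM + 1) 10.

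**Figure D4:**
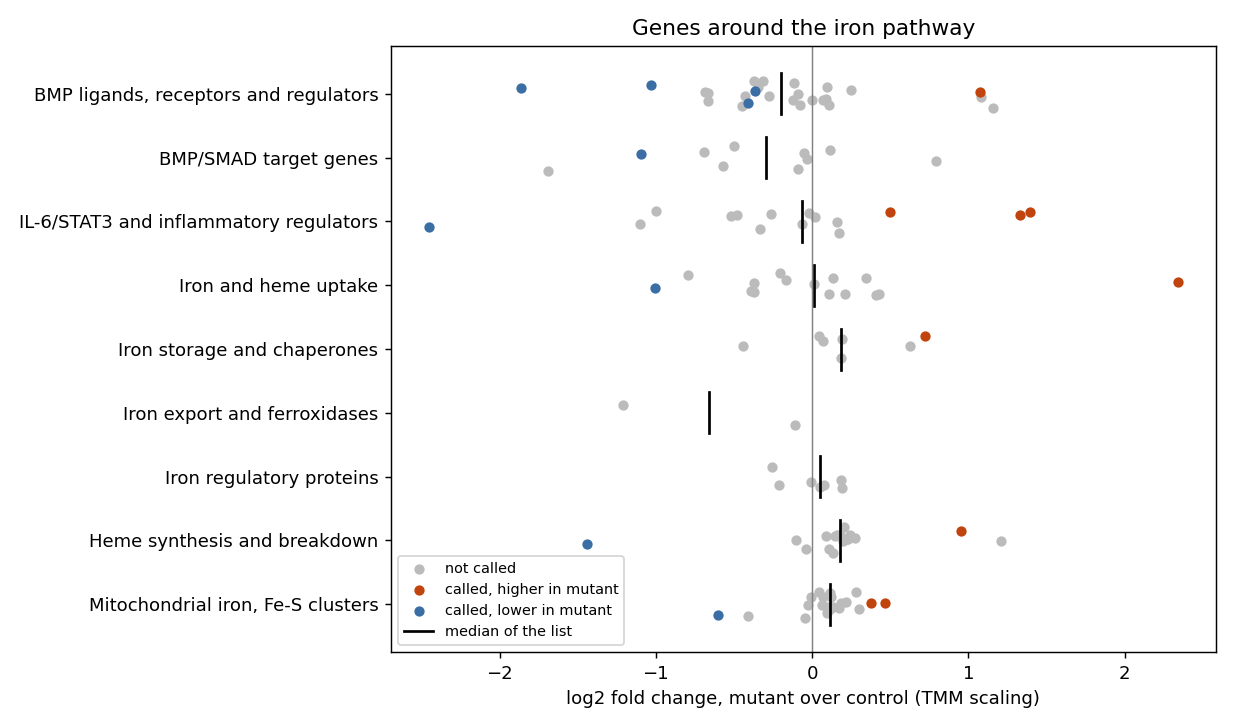
Log2 fold change (mutant over control, TMM scaling) of each tested gene in 9 lists around iron metabolism; coloured points passed the adjusted p threshold of 0.05 and vertical bars are list medians. Called genes lie on either side in 5 of the lists, Scara5 is the largest increase (2.34) and Il1b the largest decrease (-2.45).

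The list of BMP ligands, receptors and regulators of hepcidin signalling held calls in both directions. Of 26 tested genes 1 rose, 4 fell and 21 did not pass (median log2 fold change -0.20). Bmp5, a BMP ligand, had 4.74, 5.17 and 3.90 CPM in mutant replicates 1 to 3 and 10.4, 7.69 and 10.1 CPM in control replicates 1 to 3 (log2 fold change -1.03, adjusted p = 0.0136), a call lost without control replicate 1 (adjusted p = 0.0556). Fst, the activin antagonist follistatin, fell by 1.86 on the log2 scale (adjusted p = 0.0164), a call lost without control replicate 1 or 2. The BMP receptor gene Bmpr1a also fell, with 28.6, 29.1 and 33.0 CPM in mutants and 43.2, 37.1 and 40.4 CPM in controls (log2 fold change -0.41, adjusted p = 0.0446). The fits in which the Bmpr1a call was lost included those without mutant replicate 1 or 2 and those without control replicate 1, 2 or 3. The co-receptor gene Hjv had 59.0, 62.5 and 66.0 CPM in mutants and 78.5, 87.1 and 76.3 CPM in controls. Hjv was therefore lower in every mutant, but its call (log2 fold change -0.37 ± 0.10, adjusted p = 0.0428) was lost with any library left out. With all libraries, Hjv was also called lower at library totals (-0.77, adjusted p = 0.00147) and with limma on log2(TPM + 1) (-0.94, limma adjusted p = 0.000449). Smad9, a signalling SMAD, rose by a log2 fold change of 1.08 (adjusted p = 0.0296), lost without mutant replicate 1 or 2 or control replicate 2 or 3. The Smad9 call was also lost at library totals (0.68, adjusted p = 0.0711) and with limma on log2(TPM + 1) (0.31, limma adjusted p = 0.192).

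The endothelial ligand genes that signal to hepatocytes did not pass. Bmp6, the ligand induced by iron, had 1.52, 1.83 and 2.87 CPM in mutant replicates 1 to 3 and 4.33, 1.77 and 3.89 CPM in control replicates 1 to 3 (adjusted p = 0.304). Bmp2 had 5.81, 6.44 and 9.80 CPM in mutants and 9.03, 6.998 and 14.1 CPM in controls (adjusted p = 0.356). Summed sinusoidal endothelial markers had 104 to 156 CPM in mutants and 136 to 235 CPM in controls, and their part in these values was not tested. Hfe, a partner of the transferrin receptors, had 39.2 to 47.0 CPM in mutants and 39.4 to 41.9 CPM in controls (adjusted p = 0.607). Tmprss6, the protease that cleaves hemojuvelin and restrains hepcidin, had 411 to 429 CPM in mutants and 397 to 441 CPM in controls (adjusted p = 1.00). Tmprss6 was called lower at library totals (-0.40, adjusted p = 0.00965) and with limma on log2(TPM + 1) (-0.59, limma adjusted p = 0.00139). With limma Hfe (-0.49, limma adjusted p = 0.00804) and Bmp2 (-0.78, limma adjusted p = 0.0265) were also called lower.

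Among 10 tested BMP and SMAD targets, Id1 and Smad7 not included, 0 rose, 1 fell and 9 did not pass with edgeR (median -0.30), 4 had an unadjusted p under 0.05 (1 higher, 3 lower), and DESeq2 called 1 higher and 2 lower. Id3, a relative of Id1, had 36.5, 21.1 and 18.4 CPM in mutant replicates 1 to 3 and 17.9, 27.5 and 24.7 CPM in control replicates 1 to 3, again with mutant replicate 1 highest (log2 fold change 0.12, adjusted p = 0.819). Smad6, an inhibitory SMAD, had 4.31 to 5.22 CPM in mutants and 6.48 to 9.07 CPM in controls and did not pass (log2 fold change -0.69, adjusted p = 0.0528). Smad6 was called lower at library totals (-1.09, adjusted p = 0.00565), with DESeq2 (-0.69, DESeq2 adjusted p = 0.0268) and with limma on log2(TPM + 1) (-0.96, limma adjusted p = 0.00277). Atoh8, a hepatic transcription factor that responds to iron, had 20.7, 11.9 and 21.7 CPM in mutants and 8.03, 12.4 and 10.9 CPM in controls, which overlap (log2 fold change 0.80, adjusted p = 0.0719). It was called higher with DESeq2 (0.79, DESeq2 adjusted p = 0.0132) and without mutant replicate 2 (1.01, adjusted p = 0.0219). Atoh8 was not called with any other library left out, at library totals (0.40, adjusted p = 0.245) or with limma on log2(TPM + 1) (0.16, limma adjusted p = 0.596). Dusp6, a phosphatase of ERK placed in the list, had 22.2 to 26.03 CPM in mutants and 44.0 to 58.0 CPM in controls and fell (log2 fold change -1.10, adjusted p = 0.00219).

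Among 15 tested genes of the inflammatory route to hepcidin, 3 rose, 1 fell and 11 did not pass (median -0.06). The receptor genes Lifr and Il6ra rose. Lifr, which encodes the LIF receptor, had 143, 218 and 114 CPM in mutant replicates 1 to 3 and 59.2, 62.5 and 59.1 CPM in control replicates 1 to 3 (log2 fold change 1.39, adjusted p = 0.00546). Il6ra, the IL-6 binding receptor chain, had 91.5, 46.8 and 115 CPM in mutants and 38.5, 26.4 and 36.0 CPM in controls (log2 fold change 1.33, adjusted p = 0.0248), which among the fits with a library left out was called only in that without mutant replicate 2. The value was 0.93 and called at library totals (adjusted p = 0.0422), and 0.61 and not called with limma on log2(TPM + 1) (limma adjusted p = 0.123). Creb3l3, a hepatocyte transcription factor of endoplasmic reticulum stress known to act on the hepcidin promoter, had 418 to 457 CPM in mutants and 273 to 330 CPM in controls (log2 fold change 0.50, adjusted p = 0.0167), but 0.10 at library totals, -0.09 in TPM, and it was not called with mutant replicate 1 left out (adjusted p = 0.0588). Il1b, an inflammatory cytokine of macrophages, fell to 0.434 to 0.613 CPM in mutants, against 2.36 to 3.33 CPM in controls (log2 fold change -2.45, adjusted p = 0.00402). Summed markers of monocyte-derived macrophages were at 81.2 to 86.7 CPM in mutants and 152 to 202 CPM in controls, and their part was not tested. Stat3 had 85.0 to 148 CPM in mutants and 97.8 to 164 CPM in controls (adjusted p = 0.897), and Il6 was below the filter.

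For uptake of iron and heme, 1 of 15 tested genes rose, 1 fell and 13 did not pass (median 0.01). Scara5, a ferritin receptor, had 17.3, 7.99 and 4.39 CPM in mutant replicates 1 to 3 and 1.78, 2.96 and 1.13 CPM in control replicates 1 to 3 (log2 fold change 2.34 ± 0.53, adjusted p = 0.0252), lost without mutant replicate 1 or control replicate 1 or 3. Steap4, a metalloreductase, had 68.5 to 97.7 CPM in mutants and 125 to 224 CPM in controls (log2 fold change -1.01, adjusted p = 0.0207), lost without mutant replicate 1 or 3 or control replicate 1 or 2. Slc39a14, the transporter of iron not bound to transferrin, had 259, 164 and 181 CPM in mutants and 132, 182 and 142 CPM in controls (adjusted p = 0.194).

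Storage, export and sensing genes outside the 10 were mostly not called. Of 7 tested genes of ferritin turnover and iron chaperoning, 1 rose: Bola2, a partner in cytosolic iron-sulfur handling, had 15.03 to 19.3 CPM in mutants and 8.53 to 11.8 CPM in controls (log2 fold change 0.73, adjusted p = 0.0254), lost without mutant replicate 1 or 2 or control replicate 1 or 3. The Bola2 call was also lost at library totals (0.33, adjusted p = 0.150) and with limma on log2(TPM + 1) (0.13, limma adjusted p = 0.413). Of the export list 2 genes were tested and neither passed, among them the ferroxidase ceruloplasmin gene Cp with 945 to 1105 CPM in mutants and 1018 to 1242 CPM in controls (adjusted p = 0.565). Cp was called lower at library totals (-0.51, adjusted p = 0.0114) and with limma on log2(TPM + 1) (-0.70, limma adjusted p = 0.00272). Of 7 tested genes of the iron regulatory proteins and their control, 0 passed with edgeR and 0 with DESeq2, and 1 (Hif1a, lower) had an unadjusted p under 0.05. Library totals called 3 of them lower, and limma on log2(TPM + 1) called all 7 lower. Aco1 and Ireb2, which encode iron regulatory proteins 1 and 2, had log2 fold changes of 0.19 ± 0.08 (adjusted p = 0.183) and 0.19 ± 0.10 (adjusted p = 0.244), which turned to -0.21 for each at library totals and, with limma on log2(TPM + 1), to -0.40 for Aco1 (limma adjusted p = 0.00490) and -0.39 for Ireb2 (limma adjusted p = 0.00918).

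Heme genes showed 1 increase and 1 decrease among 17 tested (15 not passed, median 0.18). Hmox1, the inducible heme oxygenase that releases iron from heme, had 10.2, 6.35 and 9.995 CPM in mutant replicates 1 to 3 and 23.4, 25.5 and 23.3 CPM in control replicates 1 to 3. Hmox1 was thus clearly lower in all mutants (log2 fold change -1.44 ± 0.19, adjusted p = 0.00265). It is abundant in Kupffer cells, whose summed markers were lower as given above, and their part was not tested. Alas2, the erythroid form of the first enzyme of heme synthesis and the only other gene of these lists in which the iron-responsive element pattern was found, had 80.4, 81.6 and 105 CPM in mutants and 39.7, 44.4 and 53.9 CPM in controls (log2 fold change 0.95 ± 0.15, adjusted p = 0.00646). It was 0.55 and called at library totals (adjusted p = 0.0235), and 0.35 and not called with limma on log2(TPM + 1) (limma adjusted p = 0.0811). The globin genes, given above, overlapped between groups in CPM, and in TPM all but Hba-a2 did. Alas1, the liver form, had 1214, 1108 and 513 CPM in mutant replicates 1 to 3 and 521, 514 and 189 CPM in control replicates 1 to 3, with replicate 3 lowest in each group and overlap between groups (log2 fold change 1.21 ± 0.42, adjusted p = 0.0935).

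In the list of mitochondrial iron and iron-sulfur clusters, 2 of 22 tested genes rose, 1 fell and 19 did not pass (median 0.11). Slc25a37, the mitochondrial iron importer mitoferrin 1, had 19.0 to 26.6 CPM in mutants and 32.6 to 37.7 CPM in controls (log2 fold change -0.60, adjusted p = 0.0292), which among the fits with a library left out was called only in that without mutant replicate 2. Hspa9, a mitochondrial chaperone (log2 fold change 0.38, adjusted p = 0.0321), and Slc25a38, a glycine carrier for heme synthesis (0.47, adjusted p = 0.0326), rose, but both were negative in TPM (-0.22 and -0.12 with limma), the call of Slc25a38 was lost with any library left out and that of Hspa9 without mutant replicate 1 or 3 or control replicate 1 or 2.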

How the data were processed

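RNA was sequenced from 6 mouse liver samples. Per the submitters' processing notes, cutadapt, STAR and the mm10 build were used. The program that assigned reads to genes is not given in the sources used here. Gene-level estimated counts, which are not whole numbers, were deposited as a table, and a second deposited table holds TPM (abundance scaled for length and to a fixed total per library, by the authors).

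Estimated counts were rounded, filtered with filterByExpr and scaled by TMM, and tested by group with edgeR 4.0.16 (quasi-likelihood, R 4.3.3) over 14286 genes with Benjamini-Hochberg adjustment. DESeq2 1.42.0, limma 3.58.1 on log2 TPM with a pseudocount of 1 or 0.1, other scalings and filters, a replicate block and omission of each library were alternatives. TMM factors were 0.863 to 0.886 in mutants and 1.15 in each control, so TMM and totals-based values differ. Ratios within libraries were compared by two-sided exact permutation tests. With 35847386 to 43162557 estimated counts per library, counting error is small for all genes named except those with few counts, such as Hamp2. No pair of libraries agreed within sampling noise. On simulated data made from these libraries over 14286 genes, 65.3% of 95 genes changed 2-fold and 91.4% of 105 changed 4-fold were recovered, with 10 false among 168 calls. The changes went in either direction, and the other genes were given the same mean in both groups. The difference in TMM factors between the groups was thus not simulated, and these rates do not cover it.

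All 10 genes were described. From each pathway list up to 4 called genes with the smallest p were named, along with regulators named whatever their p. Bmpr1a, called but outside this rule, was added. Genes and lists were chosen with earlier results of these data known. Coordinates are from GENCODE M21 on GRCm38, which holds 99.4% of the identifiers. Promoters are from RefSeq, and the motifs were chosen with the sequences in view.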

Additional observations from a re-analysis of the deposited data

How the results depend on the processing

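Hamp was called higher under all alternatives run. The number of called genes was 4801 at library totals, 7579 with limma on log2(TPM + 1), 7526 on log2(TPM + 0.1) and 6581 without a filter, and 882 to 1514 with a library left out. Of the 10 genes, library totals called 5 and limma 6 with either pseudocount, and leaving out a library 2 to 3. For the pathway lists these counts were 47 at library totals, 88, 87 and 76 with limma, and 7 to 15 with a library left out.

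At library totals Tfrc (-0.65), Slc40a1 (-0.51) and Trf (-0.55) were called lower, Tfr2 (0.21) lost its call, and Ftl1 (-0.31) and Smad7 (-0.13) changed sign. With limma on log2(TPM + 1) the values were -0.67 for Tfrc, -0.69 for Slc40a1, -0.75 for Trf, 0.011 for Tfr2, -0.51 for Ftl1 and -0.27 for Smad7. With 0.1 as pseudocount they were -0.81, -0.70, -0.75, 0.011, -0.51 and -0.37 in the same order, and without a filter those of Slc40a1 (-0.69), Trf (-0.75), Tfr2 (0.011), Ftl1 (-0.51) and Smad7 (-0.27) also differed in call or sign. Ftl1 was -0.12 at totals without the major urinary protein genes, which are very abundant in male liver. With a library left out, Fth1 ranged between -0.54 and -0.44 and Smad7 between -0.025 and 0.50. TMM and library totals differ by construction by a shift shared by all genes, given above as the median. The cause of the other differences was not tested.

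Named list genes that changed sign with limma on log2(TPM + 1), and with 0.1 as pseudocount, were Creb3l3 (-0.093 and -0.093), Hspa9 (-0.22 and -0.22), Slc25a38 (-0.12 and -0.12), Hfe (-0.49 and -0.50), Id3 (-0.51 and -0.52), Slc39a14 (-0.20 and -0.20), Aco1 (-0.40 and -0.41) and Ireb2 (-0.39 and -0.41). At library totals Hspa9 (-0.021), Hfe (-0.30), Id3 (-0.28), Aco1 (-0.21) and Ireb2 (-0.21) changed sign, and without the major urinary protein genes Hfe (-0.12), Id3 (-0.092), Aco1 (-0.024) and Ireb2 (-0.019). With a library left out, Id3 ranged between -0.25 and 0.30, Stat3 between -0.26 and 0.20 and Tmprss6 between -0.038 and 0.037. Tmprss6, at 0 in the fit reported, was 0.0021 without a filter, 0.00045 with DESeq2 and 0.0011 with the replicate block; it was called lower at library totals and with limma, as given above.

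Same-numbered libraries did not deviate together (correlations 0.017, -0.0032 and 0.063), so the numbers are not taken to pair them, and not every library correlated best with its own number. With the replicate block 3 of the 10 genes, 16 of the list genes and 1558 of all genes were called, and the adjusted p of Alas1 was 0.00174. A design of 3 against 3 libraries cannot give an exact permutation p under 0.1, and genes with low counts, such as Hamp2, have wide intervals.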
